A study of Mus musculus with 8 samples.

Results

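Genes of glycolysis and of the response to low oxygen were followed in RNA sequencing counts of mouse embryonic fibroblasts, which are connective tissue cells cultured from embryos. The group was given as 41 gene symbols, for enzymes of sugar breakdown and their regulators, for the sensing of oxygen and for targets of the hypoxia response. Of these, 40 were found among the 12209 symbols of the count table, on 41 of its 12211 rows because Aldoa stands on 2, and all 41 rows passed the filter on low counts. Car9 was not analysed here. The comparison was between 4 libraries labelled PUS10KO (genotype PUS10 KO) and 4 control libraries (genotype WT), numbered 1 to 4 in each genotype. All 8 were grown in serum-containing Dulbecco's medium, and no low-oxygen treatment is named in the labels. PUS10 belongs to the pseudouridine synthases, which convert uridine to pseudouridine in RNA. How the gene was knocked out, and whether a genotype stands for 1 clone, 1 embryo or several, is given in none of the sources used here.

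Glycolysis splits glucose into pyruvate in the cytosol. Its upper part spends ATP to trap and prime the sugar, its lower part makes ATP and pyruvate, and lactate dehydrogenase then interconverts pyruvate and lactate. Many of these enzymes exist as isoenzymes from separate genes that differ in regulation. When oxygen is ample, prolyl hydroxylases of the Egln family mark the transcription factor subunit HIF-1α for capture by the VHL protein and for destruction. When oxygen falls, HIF-1α pairs with ARNT and binds short sequences called hypoxia response elements near its targets, which include most glycolytic enzymes as well as Egln3, a feedback arm of the sensor. Fibroblasts also use HIF targets such as P4ha1 and P4ha2 to hydroxylate collagen.

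Library totals lay between 17561114 (PUS10KO 4) and 24563499 (PUS10KO 2) counts. Levels are given as CPM, read counts scaled to the TMM-adjusted size of the library. Pus10 had 11.5 to 15.2 CPM in PUS10KO and 40.1 to 51.8 CPM in control (log2 fold change -1.74, adjusted p = 0.000189 by the quasi-likelihood test of edgeR, Benjamini-Hochberg adjustment). Principal component 1 (56.1% of the variance) separated the genotypes, and component 2 (26.1%) separated numbers 1 and 2 from numbers 3 and 4. The Y-linked gene Eif2s3y had 65.9 to 73.8 CPM in PUS10KO and 0 counts in control, so sex chromosome content and genotype cannot be told apart. All 12 fibroblast markers were measured. Their summed level was 12095 to 19003 CPM in PUS10KO and 18980.0 to 24359 CPM in control, and 3 of them (Vim, Col1a2, Pdgfrb) fell, each losing its call in at least 6 of the 8 fits without 1 library (adjusted p up to 0.0796, 0.12 and 0.128). With library number added to the fit as a replicate block 1 rose and 5 fell. Some markers of other cell types were also lower in PUS10KO. The epithelial marker Krt19, 1 of 7 on that list with a value, had 11.5 to 20.7 CPM in PUS10KO and 73.0 to 221 CPM in control. The 2 of 7 skeletal muscle markers with values summed to 1.43 to 3.36 CPM in PUS10KO and 9.96 to 152 CPM in control, with Acta1 falling by edgeR's test and not by limma voom (adjusted p = 0.0569), and the 3 of 6 neural markers summed to 66.6 to 94.5 CPM in PUS10KO and 165 to 239.99 CPM in control, with Nes falling (2 of the 3 with the block). None of the 2 endothelial, 3 macrophage and 2 adipocyte markers with values passed edgeR's test (unadjusted p under 0.05 for 0, 1 and 1 of them; DESeq2 and limma voom called 0). With the block 1 endothelial and 1 macrophage marker fell, and 1 adipocyte marker rose and 1 fell; Pecam1, Ptprc and Adipoq have no value here. Their part in the results that follow was not tested, and in bulk RNA fewer cells of a type cannot be told apart from less RNA per cell. The labels do not say whether the libraries are of separate cultures or animals, and the p-values thus reflect the spread among these 8 samples alone, and that spread may be technical.

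The DNA just upstream of these genes is shown first, because the core of a hypoxia response element can be read in it. RefSeq starts on the mouse build GRCm38.p6 gave a window of 250 bases before the start for 38 of the 40 genes. Windows were searched for ACGTG and GCGTG on either strand, which appear as CACGT and CACGC when they lie on the other strand. Of the 38 genes, 34 (89.5%) had a match in the window of at least 1 of their starts, against 62.2% of 9513 tested genes with a window and 38.6% of all 32851 windows of this length. The share did not separate the called genes from the others: 8 of 8 genes that fell had a match, as had 2 of 2 that rose and 24 of 28 (85.7%) that were not called. With ACGTG alone the shares were 62.5% of the genes that fell, none of the 2 that rose and 25.3% of tested genes, and 16 of the 28 genes that were not called (57.1%) had one. The palindrome CACGTG, an E-box bound by MYC and other factors, holds ACGTG on both strands and stood in the windows of 5 of the 38 genes (13.2%), against 9.99% of tested genes. A match is a description of the letters and not evidence of binding.

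Shown here, 5′ to 3′ on the gene's strand and ending at the base before the start, are 4 genes of oxygen sensing and the hypoxia response that fell most (Ankrd37, P4ha1, Ero1l, Egln3), the 2 genes that rose (Ldhb, Pfkp) and Ldha, whose level did not pass the test and whose window holds CACGTG at 2 places. Capitals mark the searched letters. The windows lie at chr8:45999851-46000100 (minus strand) for Ankrd37, chr10:59323046-59323295 (plus) for P4ha1, chr14:45318573-45318822 (minus) for Ero1l, which RefSeq names Ero1a, chr12:54203875-54204124 (minus) for Egln3, chr6:142507958-142508207 (minus) for Ldhb, chr13:6648772-6649021 (minus) for Pfkp and chr7:46845554-46845803 (plus) for Ldha.
Ankrd37: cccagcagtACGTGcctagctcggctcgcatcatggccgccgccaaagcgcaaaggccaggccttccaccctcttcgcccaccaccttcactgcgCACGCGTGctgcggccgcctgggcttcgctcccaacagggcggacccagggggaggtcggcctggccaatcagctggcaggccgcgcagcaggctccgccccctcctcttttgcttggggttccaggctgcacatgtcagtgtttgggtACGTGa
P4ha1: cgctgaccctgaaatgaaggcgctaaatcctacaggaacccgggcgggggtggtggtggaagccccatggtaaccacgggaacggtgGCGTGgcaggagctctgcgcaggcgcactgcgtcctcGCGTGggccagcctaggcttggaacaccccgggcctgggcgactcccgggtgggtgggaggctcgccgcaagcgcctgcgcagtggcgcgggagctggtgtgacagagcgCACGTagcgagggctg
Ero1l: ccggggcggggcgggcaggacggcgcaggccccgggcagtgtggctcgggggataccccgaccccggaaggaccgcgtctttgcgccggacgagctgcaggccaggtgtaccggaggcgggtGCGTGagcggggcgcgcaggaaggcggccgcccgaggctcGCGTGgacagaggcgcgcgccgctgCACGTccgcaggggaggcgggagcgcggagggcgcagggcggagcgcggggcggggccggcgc
Egln3: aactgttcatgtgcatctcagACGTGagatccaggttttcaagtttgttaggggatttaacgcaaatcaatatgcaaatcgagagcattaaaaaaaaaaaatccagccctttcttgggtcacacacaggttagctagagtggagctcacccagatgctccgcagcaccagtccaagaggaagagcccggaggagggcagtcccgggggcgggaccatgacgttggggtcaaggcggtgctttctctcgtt
Ldhb: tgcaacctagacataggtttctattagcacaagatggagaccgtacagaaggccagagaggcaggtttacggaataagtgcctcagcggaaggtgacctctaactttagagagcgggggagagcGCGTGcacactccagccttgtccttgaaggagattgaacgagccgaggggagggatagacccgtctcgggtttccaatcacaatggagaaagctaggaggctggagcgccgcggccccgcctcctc
Pfkp: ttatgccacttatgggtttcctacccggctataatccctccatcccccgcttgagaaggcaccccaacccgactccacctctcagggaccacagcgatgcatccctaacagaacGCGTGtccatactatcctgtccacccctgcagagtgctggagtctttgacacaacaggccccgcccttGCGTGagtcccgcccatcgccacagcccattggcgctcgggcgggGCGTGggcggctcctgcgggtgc
Ldha: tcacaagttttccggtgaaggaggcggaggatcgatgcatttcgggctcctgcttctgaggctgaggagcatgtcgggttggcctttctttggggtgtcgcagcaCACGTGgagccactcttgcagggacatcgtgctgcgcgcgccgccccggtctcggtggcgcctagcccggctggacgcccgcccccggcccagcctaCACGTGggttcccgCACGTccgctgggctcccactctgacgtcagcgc
The match nearest the start lay 6 bases before it in Ankrd37 and 16 bases before it in P4ha1. In Egln3 the only match lay 229 bases before the start, and in Ldhb 126 bases before it.

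Between the genotypes, more of these genes were lower than higher in PUS10KO. By the quasi-likelihood test of edgeR, adjusted over all 11909 tested genes by the Benjamini-Hochberg method, 2 rose (Ldhb, Pfkp), 8 fell (Pfkl, Aldoa, Gapdh, Egln3, P4ha1, Ero1l, Ankrd37, Kdm3a) and 31 did not pass an adjusted p of 0.05. Among all genes tested, 5.9% rose and 7.11% fell. The median log2 fold change was -0.30 over the 41 rows and 0.01 over all tested genes. The 4 PUS10KO values lay entirely below the 4 control values for 11 of the 41 rows and entirely above them for 3, where this held for 10.6% and 9.7% of all tested genes. Within numbers, 20 rows were lower in PUS10KO in all 4 and 8 were higher in all 4, against 26.9% and 28.4% of tested genes.

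The library numbers mattered for how many genes were called. Same-numbered libraries of the 2 genotypes deviated together, and with the number as a replicate block 26 rows passed, 7 of them higher and 19 lower in PUS10KO, and 15 did not. Under that block 19.1% of all tested genes rose and 19.9% fell. DESeq2 called 3 of these genes higher and 11 lower (9.39% and 10.5% of its tested genes), and limma voom 2 and 9 (5.87% and 6.84%). RLE size factors and no filter each gave 2 and 8 (5.97% and 6.97% of tested genes with RLE, 6.31% and 7.53% with no filter). The 10 genes called without the block were among those called with it, in the same direction.

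**Figure D1:**
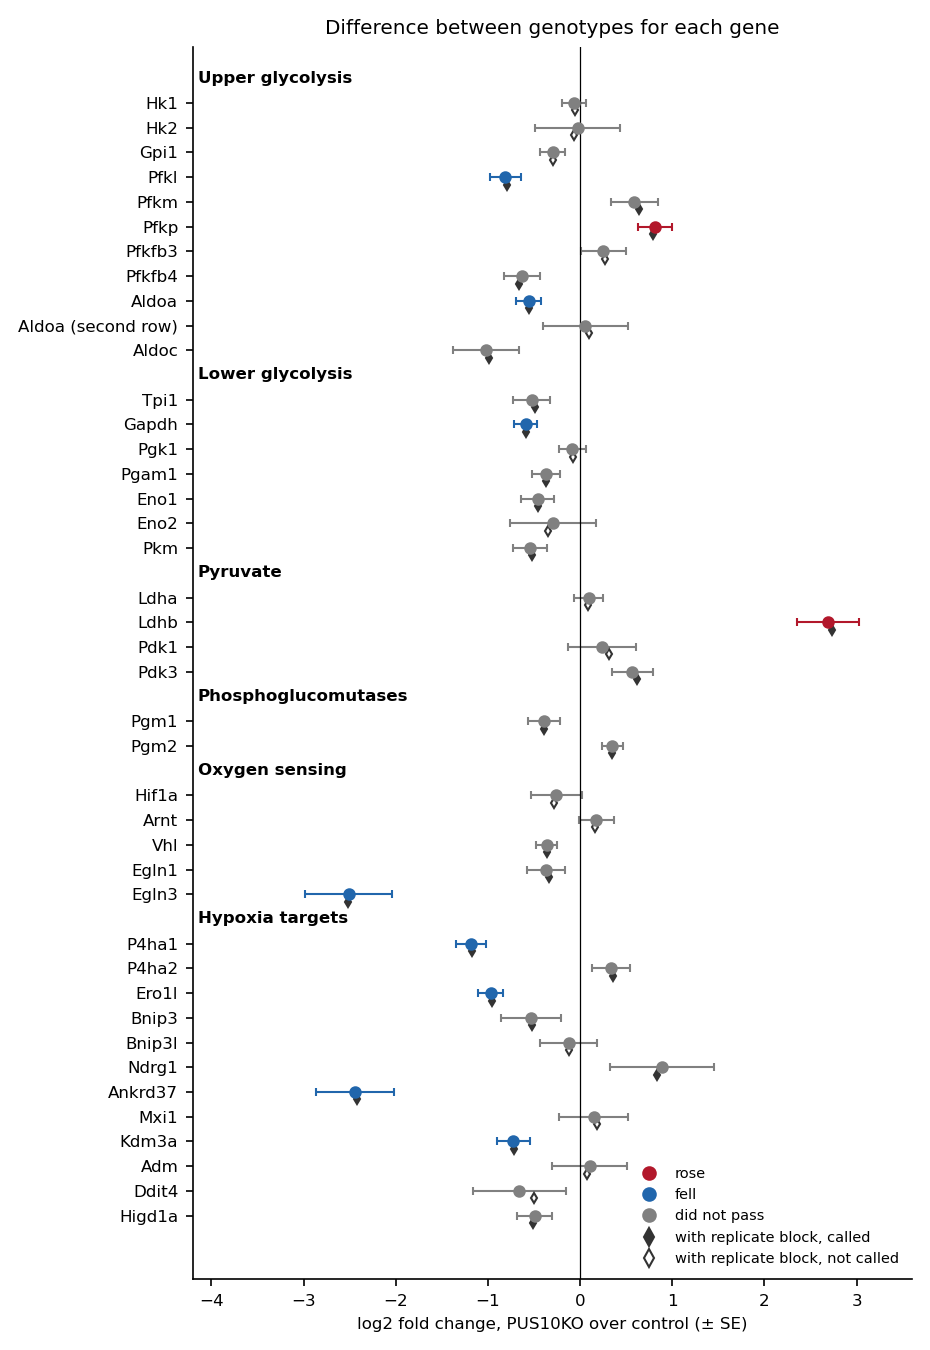
Log2 fold change of each of the 41 rows, PUS10KO over control (horizontal axis; circles with SE), ordered by role, with red for genes that rose, blue for genes that fell and grey for genes that did not pass. Diamonds give the fold change with the replicate block, filled where the gene was called; Ldhb stands furthest to the right at 2.69, and Egln3 and Ankrd37 furthest to the left at -2.51 and -2.44.

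In upper glycolysis the phosphofructokinase gene Pfkl fell and Pfkp rose. With Pfkm they encode the liver (Pfkl), muscle (Pfkm) and platelet (Pfkp) subunits of the enzyme that commits fructose 6-phosphate to glycolysis. Of the 11 rows of upper glycolysis 1 rose and 2 fell (2 and 4 with the block), with a median log2 fold change of -0.07. Pfkl (ENSMUSG00000020277.10, chr10:77986947-78010083, minus strand) had 116, 119.7, 94.1 and 100.01 CPM in PUS10KO libraries 1 to 4, and 143, 178, 204 and 229 CPM in control libraries 1 to 4. Every PUS10KO value was below every control value, and the gap was wider in numbers 3 and 4 than in numbers 1 and 2. The means were 108 ± 12.4 and 188 ± 37.1 CPM (PUS10KO and control, SD, n = 4 each), with a log2 fold change of -0.81 (SE 0.17, adjusted p = 0.0127, edgeR). Chromosome 10 as a whole was lower in PUS10KO (median log2 fold change -0.25), and with each chromosome scaled on its own Pfkl had -0.56 (adjusted p = 0.0663, edgeR).

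Pfkp (ENSMUSG00000021196.14, chr13:6579768-6648777, minus strand) went the other way. It had 138, 125, 190.1 and 205 CPM in PUS10KO libraries 1 to 4, and 102, 77.8, 94.1 and 101 CPM in control libraries 1 to 4. No PUS10KO value fell within the control range, and PUS10KO 3 and 4 stood above PUS10KO 1 and 2. The means were 165 ± 38.8 CPM in PUS10KO and 93.7 ± 11.2 CPM in control (SD, n = 4 each; log2 fold change 0.81, SE 0.18, adjusted p = 0.0202, edgeR). The call was lost without PUS10KO 3 or control 3 (adjusted p up to 0.0603) and with each chromosome scaled on its own (log2 fold change 0.66, adjusted p = 0.0643, edgeR). Its exons share 748 bases with Pitrm1 on the opposite strand, and the strand setting of the counting is not given, so reads of the 2 genes may be mixed. Pfkm did not pass without the block (77.0 ± 13.4 CPM in PUS10KO and 51.2 ± 17.7 CPM in control; log2 fold change 0.59, adjusted p = 0.179, edgeR) and rose with it (adjusted p = 0.00327, edgeR).

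Divided by exon length, the sum of the 3 subunits was 51.4 ± 4.85 CPM per kilobase in PUS10KO and 50.6 ± 10.8 in control, while its make-up differed. Pfkl held 38.1%, 36.6%, 25.5% and 26.9% of the length-scaled sum in PUS10KO libraries 1 to 4, and 54.5%, 60.9%, 52.9% and 55.9% in control libraries 1 to 4. Pfkm held 44.6% ± 3.91 in PUS10KO and 29.7% ± 4.49 in control, and Pfkp 23.7% ± 3.68 in PUS10KO and 14.3% ± 3.48 in control (SD, n = 4 each). The length-scaled shares of Pfkl and Pfkm did not overlap between genotypes, whereas those of Pfkp did, since PUS10KO 2 at 19.1% lay just below control 1 at 19.4%. This contrast depends on the lengths. Without division by length the shares of Pfkp did not overlap. The mean share, PUS10KO minus control, then differed by 18.1 points for Pfkp and 6.94 for Pfkm. Shares rest on GENCODE M21 exon lengths, take no account of which isoform was used, and carry no test.

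**Figure D2:**
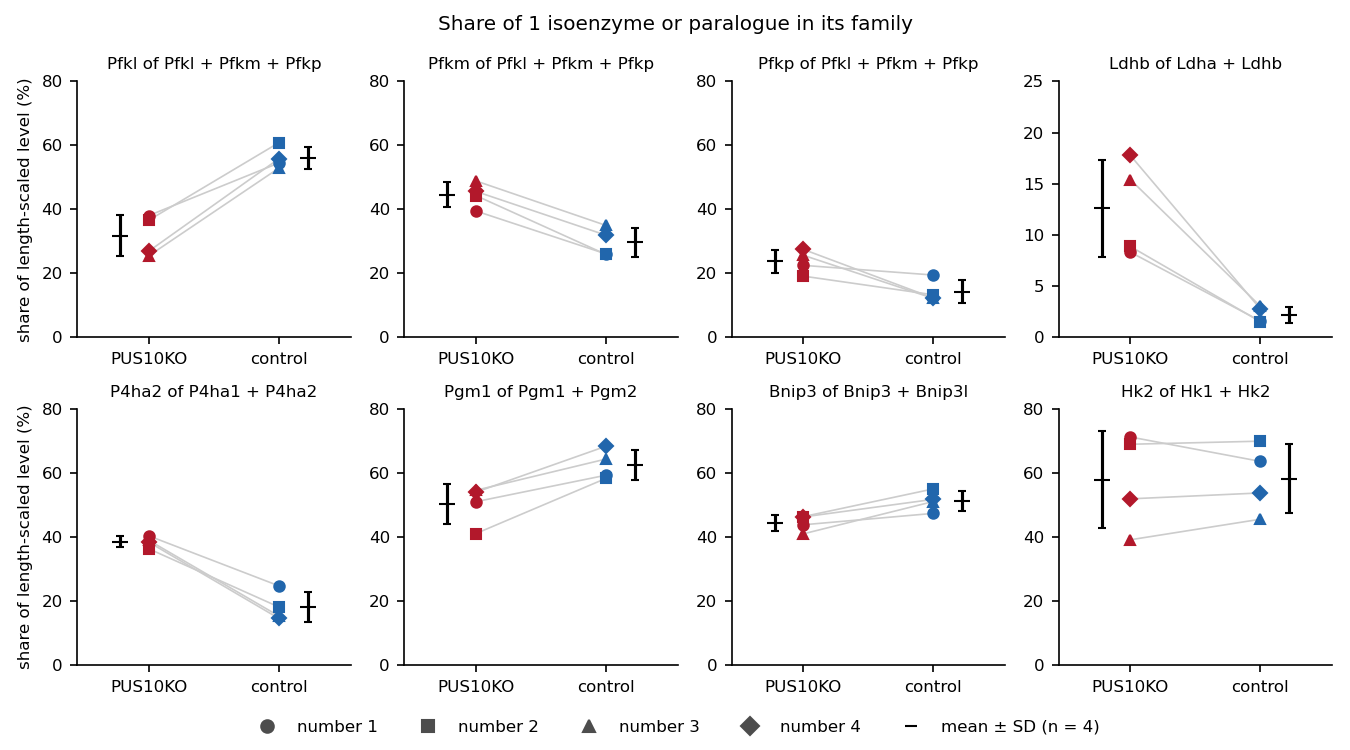
Share of 1 gene in the length-scaled level of its family (vertical axis, percent) in each library, with PUS10KO in red on the left and control in blue on the right of each panel; grey lines join libraries of the same number and black bars give mean ± SD (n = 4). The Ldhb panel runs to 25% and the others to 80%; Pfkl and P4ha2 stand apart between genotypes, and the Hk2 shares overlap.

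Among the other upper glycolytic genes only Aldoa passed edgeR's test on all 8 libraries without the block. Aldoa (ENSMUSG00000030695.16, chr7:126795234-126800751, minus strand), the aldolase that splits the 6-carbon sugar, had 875, 819, 762 and 766 CPM in PUS10KO libraries 1 to 4, and 966, 1218, 1227 and 1334 CPM in control libraries 1 to 4. All PUS10KO values were below all control values, with the smallest gap in number 1. On the log2 scale the fold change was -0.56 (SE 0.14, adjusted p = 0.0277, edgeR; means 806 ± 53.0 CPM in PUS10KO and 1186 ± 156 CPM in control, SD, n = 4 each). The call held only in the fits without PUS10KO 1 or control 1 among the 8 that left out 1 library (adjusted p up to 0.0919 in the others), and it held with each chromosome scaled on its own (-0.70, adjusted p = 0.0117). A second row with the symbol Aldoa held few counts (1.08 ± 0.288 CPM in PUS10KO, 1.048 ± 0.514 CPM in control) and did not pass (adjusted p = 0.958, edgeR).

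Pfkfb4, which makes the phosphofructokinase activator fructose 2,6-bisphosphate, had 24.8, 18.8, 14.6 and 14.3 CPM in PUS10KO libraries 1 to 4, and 26.5, 29.1, 31.5 and 25.3 CPM in control libraries 1 to 4. Aldoc, a second aldolase, was at 0.570 ± 0.137 CPM in PUS10KO (0.386, 0.557, 0.633 and 0.704 CPM) and 1.16 ± 0.412 CPM in control (0.973, 0.766, 1.18 and 1.72 CPM). Neither gene overlapped between genotypes. In edgeR's fit to all 8 libraries both passed with the block and not without it: Pfkfb4 had a fold change of -0.63 on the log2 scale (edgeR adjusted p = 0.0672 without and 0.012 with the block) and Aldoc -1.02 (edgeR adjusted p = 0.0994 without and 0.0251 with the block). Without the block Pfkfb4 also passed by DESeq2 (adjusted p = 0.021), by limma voom (adjusted p = 0.0476) and by edgeR without PUS10KO 1 (adjusted p = 0.0166). The hexokinase genes Hk1 and Hk2, whose products trap glucose in the cell, and Gpi1, which isomerises glucose 6-phosphate, did not pass with or without the block, though Gpi1 fell when the block was combined with each chromosome scaled on its own (-0.43, adjusted p = 0.0221, edgeR). The 95% intervals of their log2 fold changes, from the same fit, ran from -0.36 to 0.22 for Hk1, from -1.07 to 1.01 for Hk2 and from -0.61 to 0.01 for Gpi1. Pfkfb3, the paralogue of Pfkfb4, had a fold change of 0.25 on the log2 scale (adjusted p = 0.567, edgeR).

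In lower glycolysis, 1 of 7 genes fell without the block (Gapdh) and 5 fell with it, and the median log2 fold change was -0.46. When the block was combined with each chromosome scaled on its own, 2 fell (Gapdh and Eno1). Gapdh (ENSMUSG00000057666.18, chr6:125161715-125166467, minus strand), which makes the first high-energy intermediate, had 225, 259, 272 and 222 CPM in PUS10KO libraries 1 to 4, and 315, 379, 397 and 383 CPM in control libraries 1 to 4. Every PUS10KO library was lower than every control, and the differences within numbers were similar (-0.49, -0.55, -0.54 and -0.78 on the log2 scale). The means were 245 ± 24.9 CPM in PUS10KO and 369 ± 36.4 CPM in control (SD, n = 4 each; log2 fold change -0.59, SE 0.13, adjusted p = 0.0162, edgeR). The call was lost without control 3 (adjusted p = 0.055) and with each chromosome scaled on its own (-0.38, adjusted p = 0.109, edgeR). Gapdh has many near-identical processed copies in the mouse genome, and Ldha, Pgk1, Tpi1 and Eno1 have some, so the counts of these genes are uncertain.

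Pkm, pyruvate kinase, had the highest level per kilobase of exon of all 41 rows, at 342 ± 42.2 CPM per kilobase in PUS10KO and 498 ± 108 in control. Its values were 1609, 2025, 1636 and 1574 CPM in PUS10KO libraries 1 to 4, and 1732, 2608, 2615 and 3013 CPM in control libraries 1 to 4. Control 1 lay inside the PUS10KO range, and the other 3 controls lay above it. The log2 fold change was -0.54 (edgeR adjusted p = 0.0994 without and 0.0151 with the block). The triose phosphate isomerase gene Tpi1 (-0.52, adjusted p = 0.132 without and 0.00797 with the block), the enolase gene Eno1 (-0.46, adjusted p = 0.135 without and 0.0209 with the block) and the phosphoglycerate mutase gene Pgam1 (-0.37, adjusted p = 0.152 without and 0.0368 with the block) likewise fell by edgeR's test with the block and did not pass without it. Of these, Pkm, Tpi1 and Pgam1 did not pass edgeR's test when the block was combined with each chromosome scaled on its own. Their log2 fold changes were then -0.38, -0.28 and -0.25 (adjusted p = 0.0602, 0.076 and 0.167, edgeR). Without control 1, Tpi1, Eno1 and Pkm also passed the fit without the block, and DESeq2 called Pkm with all libraries (adjusted p = 0.0349). Control 1 was the lowest control library for 6 of the 7 genes. Pgk1, a kinase that makes ATP in the pathway, had 209.6 ± 21.9 CPM in PUS10KO and 223 ± 35.5 CPM in control, with an interval of -0.42 to 0.24 for the log2 fold change. The neuronal enolase gene Eno2 had a fold change of -0.29 on the log2 scale (adjusted p = 0.747, edgeR).

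At the pyruvate branch, Ldhb stood apart from the other 3 genes. Ldhb (ENSMUSG00000030246.11, chr6:142490249-142507957, minus strand) encodes the H subunit of lactate dehydrogenase, which favours lactate oxidation, and Ldha the M subunit, which favours lactate production. Ldhb had 46.9, 53.5, 79.5 and 84.6 CPM in PUS10KO libraries 1 to 4, and 5.94, 7.17, 13.8 and 14.0 CPM in control libraries 1 to 4. The lowest PUS10KO library was more than 3 times the highest control library, and in both genotypes numbers 3 and 4 were higher than numbers 1 and 2. The means were 66.1 ± 18.7 CPM in PUS10KO and 10.2 ± 4.28 CPM in control (SD, n = 4 each; log2 fold change 2.69, SE 0.34, adjusted p = 0.00136, edgeR). The differences within numbers were 2.96, 2.88, 2.52 and 2.58 on the log2 scale, and the call was kept whichever of the 8 libraries was left out. With each chromosome scaled on its own the log2 fold change was 2.89 (adjusted p = 0.00102, edgeR).

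Ldha had 1089.9, 1159, 919.8 and 825 CPM in PUS10KO libraries 1 to 4, and 783, 985, 936 and 1045 CPM in control libraries 1 to 4. It was higher in PUS10KO in numbers 1 and 2 and lower in numbers 3 and 4, with a log2 fold change of 0.09 (interval -0.26 to 0.44, adjusted p = 0.76, edgeR). As a share of the length-scaled sum of both genes, Ldhb was 8.31%, 8.87%, 15.4% and 17.8% in PUS10KO libraries 1 to 4, and 1.57%, 1.51%, 3.02% and 2.75% in control libraries 1 to 4. Ldha thus remained the main transcript in all 8 libraries. The pyruvate dehydrogenase kinase genes, whose products restrain pyruvate entry into the mitochondrial cycle, did not pass in the fit to all 8 libraries without the block. Pdk3 had 78.0 ± 6.44 CPM in PUS10KO and 52.7 ± 18.2 CPM in control (log2 fold change 0.57, edgeR adjusted p = 0.142 without and 0.00839 with the block, and 0.0125 without the block and without control 4), and Pdk1 had a fold change of 0.24 on the log2 scale (adjusted p = 0.734, edgeR). Pdk3 did not pass when the block was combined with each chromosome scaled on its own (0.44, adjusted p = 0.058, edgeR).

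**Figure D3:**
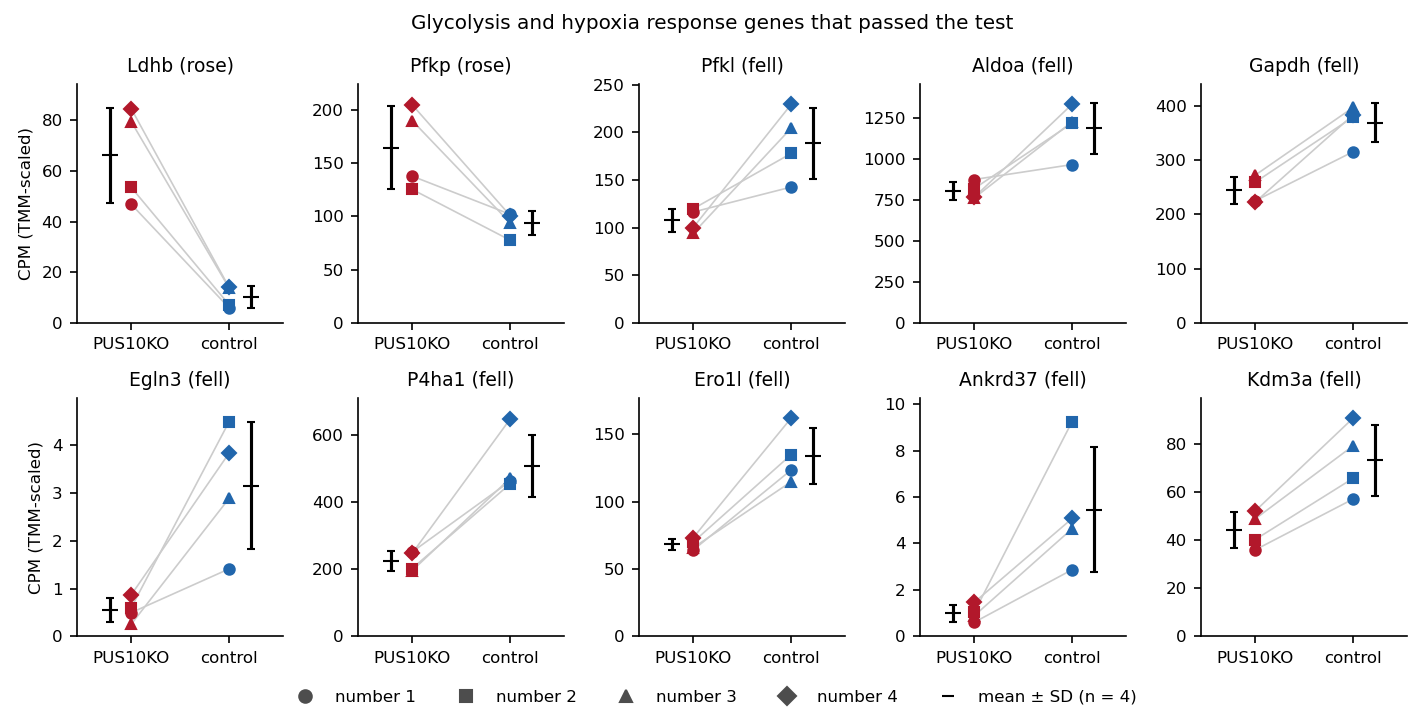
TMM-scaled CPM (vertical axis, from 0) of the 10 genes that passed the test in each library, with PUS10KO in red on the left and control in blue on the right of each panel; grey lines join libraries of the same number and black bars give mean ± SD (n = 4). In all 10 panels the genotypes do not overlap, and Ldhb and Pfkp are the 2 that are higher in PUS10KO.

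The genes with phosphoglucomutase names, Pgm1 and Pgm2, differed in opposite directions with the block and did not pass edgeR's test without it. Pgm2 had 44.0, 45.9, 35.5 and 41.9 CPM in PUS10KO libraries 1 to 4, and 33.6, 34.6, 31.2 and 31.9 CPM in control libraries 1 to 4. The groups did not overlap (log2 fold change 0.35, edgeR adjusted p = 0.0862 without and 0.0128 with the block), and DESeq2 called Pgm2 without the block (adjusted p = 0.0249). With each chromosome scaled on its own, Pgm2 had 0.17 without and 0.16 with the block and did not pass (edgeR adjusted p = 0.431 and 0.169). Pgm1 had 48.0 ± 8.47 CPM in PUS10KO and 62.9 ± 10.8 CPM in control (log2 fold change -0.39, edgeR adjusted p = 0.192 without and 0.015 with the block). Its share of the pair was 50.2% ± 6.27 in PUS10KO and 62.7% ± 4.68 in control, without overlap. These symbols have changed places between annotation releases, and gene lengths here follow GENCODE M21, where Pgm1 is on chromosome 4 and Pgm2 on chromosome 5.

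Of the 5 genes of oxygen sensing, Egln3 fell, and with the block Vhl and Egln1 fell too. Egln3 (ENSMUSG00000035105.5, chr12:54178981-54203860, minus strand), a prolyl hydroxylase whose own gene responds to HIF, was near the lower limit of the table. It had 9, 15, 6 and 16 counts in PUS10KO libraries 1 to 4, and 29, 82, 56 and 80 counts in control libraries 1 to 4. In CPM these were 0.496, 0.597, 0.253 and 0.866 in PUS10KO, and 1.41, 4.49, 2.88 and 3.83 in control. Again the genotypes did not overlap, with the smallest gap in number 1. On the log2 scale the fold change was -2.51 (SE 0.47, adjusted p = 0.00861, edgeR; means 0.553 ± 0.254 CPM in PUS10KO and 3.15 ± 1.33 CPM in control, SD, n = 4 each). Chromosome 12 had the lowest median of the autosomes (log2 fold change -0.60 over 405 genes, and -0.58 to -0.63 in the 4 numbers). With each chromosome scaled on its own Egln3 had -1.93 (adjusted p = 0.0346, edgeR), and the call was kept whichever library was left out.

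Vhl, the substrate receptor that captures hydroxylated HIF-1α, had 38.8, 39.1, 37.3 and 44.5 CPM in PUS10KO libraries 1 to 4, and 48.6, 49.96, 48.7 and 58.2 CPM in control libraries 1 to 4. The groups did not overlap and the differences within numbers ran from -0.33 to -0.39 on the log2 scale (log2 fold change -0.36, edgeR adjusted p = 0.0717 without and 0.00679 with the block), and DESeq2 called Vhl without the block (adjusted p = 0.016). With each chromosome scaled on its own, Vhl had -0.16 and did not pass (edgeR adjusted p = 0.502 without and 0.159 with the block). Egln1, the main oxygen-sensing hydroxylase, had 73.6 ± 11.3 CPM in PUS10KO and 95.1 ± 26.5 CPM in control (log2 fold change -0.37, edgeR adjusted p = 0.305 without and 0.0268 with the block). Hif1a itself had 218, 261, 369 and 470.4 CPM in PUS10KO libraries 1 to 4, and 384, 302, 338 and 553 CPM in control libraries 1 to 4. The genotypes overlapped (log2 fold change -0.26, interval -0.88 to 0.37, adjusted p = 0.611, edgeR). Hif1a lies on chromosome 12, and its sign turned when each chromosome was scaled on its own (0.34, adjusted p = 0.608). Arnt, the partner of HIF-1α, had a fold change of 0.18 on the log2 scale (adjusted p = 0.614, edgeR). These are transcript levels, and HIF-1α is controlled largely at the level of the protein, which was not measured.

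Of the 12 hypoxia targets found, 4 fell and none rose without the block, and 6 fell and 2 rose with it. The median log2 fold change was -0.51. P4ha1 (ENSMUSG00000019916.14, chr10:59323296-59373304, plus strand), the catalytic subunit of collagen prolyl 4-hydroxylase, had 252, 202, 196 and 248 CPM in PUS10KO libraries 1 to 4, and 463, 454, 471 and 647 CPM in control libraries 1 to 4. Every control library was well above every PUS10KO library, and control 4 stood above the other controls. The means were 224 ± 29.4 CPM in PUS10KO and 509 ± 92.6 CPM in control (SD, n = 4 each; log2 fold change -1.18, SE 0.16, adjusted p = 0.00198, edgeR). Relative to the rest of chromosome 10 the log2 fold change was -0.93 (adjusted p = 0.00697, edgeR).

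P4ha2, the paralogue of P4ha1, had 214 ± 38.7 CPM in PUS10KO and 169.7 ± 43.5 CPM in control (log2 fold change 0.34, edgeR adjusted p = 0.338 without and 0.0183 with the block). It did not pass when the block was combined with each chromosome scaled on its own (0.20, adjusted p = 0.146, edgeR). The P4ha2 share of the length-scaled sum of both genes was 40.4%, 36.3%, 39.0% and 38.4% in PUS10KO libraries 1 to 4, and 24.7%, 18.1%, 15.3% and 14.5% in control libraries 1 to 4. The sum itself was 88.9 ± 13.2 CPM per kilobase in PUS10KO and 151 ± 23.2 in control.

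Ero1l (ENSMUSG00000021831.9, chr14:45283087-45318771, minus strand), an oxidase that forms disulphide bonds in the endoplasmic reticulum, had 64.1, 70.0, 65.8 and 73.2 CPM in PUS10KO libraries 1 to 4, and 123, 135, 115 and 162 CPM in control libraries 1 to 4. PUS10KO values were tightly grouped and all lay below the controls (log2 fold change -0.97, SE 0.13, adjusted p = 0.00191, edgeR; means 68.3 ± 4.14 CPM in PUS10KO and 134 ± 20.5 CPM in control). Ankrd37 (ENSMUSG00000050914.16, chr8:45996902-46005707, minus strand), an ankyrin repeat gene known as a HIF target, had 11, 26, 21 and 27 counts in PUS10KO libraries 1 to 4, and 59, 169, 90 and 106 counts in control libraries 1 to 4. The groups did not overlap, and control 2 was the highest library. The means were 0.997 ± 0.357 CPM in PUS10KO and 5.46 ± 2.7005 CPM in control, with a log2 fold change of -2.44 (SE 0.42, adjusted p = 0.00576, edgeR). Its exons share 349 bases with Lrp2bp and 57 with Ufsp2, both on the opposite strand. Of these 2 genes only Ufsp2 has a row in the count table. The calls of P4ha1, Ero1l and Ankrd37 were kept whichever library was left out and with each chromosome scaled on its own.

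Kdm3a (ENSMUSG00000053470.13, chr6:71588972-71632990, minus strand), a histone H3 lysine 9 demethylase, had 36.0, 40.3, 48.8 and 52.1 CPM in PUS10KO libraries 1 to 4, and 57.1, 65.7, 79.2 and 90.7 CPM in control libraries 1 to 4. Both genotypes were lower in numbers 1 and 2 than in numbers 3 and 4, and the differences within numbers were close to each other (-0.67, -0.71, -0.70 and -0.80 on the log2 scale). On the log2 scale the fold change was -0.72 (SE 0.18, adjusted p = 0.0311, edgeR). The call was lost without PUS10KO 1, 2 or 3 or control 3 or 4 (adjusted p up to 0.0853) and with each chromosome scaled on its own (-0.52, adjusted p = 0.118), while the fit with the block gave an adjusted p of 0.000224 by edgeR's test.

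The remaining hypoxia targets did not pass the fit to all 8 libraries without the block. The mitophagy receptor gene Bnip3 had a fold change of -0.54 on the log2 scale (edgeR adjusted p = 0.343 without and 0.00211 with the block), and Higd1a, a small mitochondrial protein gene, -0.49 (edgeR adjusted p = 0.135 without and 0.0108 with the block, and 0.0393 without the block and without PUS10KO 1). Ndrg1, a stress-responsive gene, was higher in PUS10KO within each number, at 20.4, 30.7, 75.9 and 93.8 CPM in PUS10KO libraries 1 to 4 and 10.6, 23.5, 36.8 and 48.5 CPM in control libraries 1 to 4. The genotypes overlapped because numbers 3 and 4 were higher in both (log2 fold change 0.89, edgeR adjusted p = 0.366 without and 0.00113 with the block). Bnip3l, Mxi1, Adm and Ddit4 did not pass with or without the block, with log2 fold changes of -0.12, 0.15, 0.10 and -0.66. Bnip3l fell when the block was combined with each chromosome scaled on its own (-0.28, adjusted p = 0.0278, edgeR). Bnip3 held 44.4% ± 2.54 of the length-scaled sum of Bnip3 and Bnip3l in PUS10KO and 51.4% ± 3.14 in control, without overlap.

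The differences between libraries of the same number were not equal across the numbers. Over all 41 rows the median difference in log2 CPM, PUS10KO minus control, was -0.09, -0.25, -0.38 and -0.39 in numbers 1 to 4, with 23, 29, 28 and 28 rows lower in PUS10KO. Over all tested genes the medians were 0.02, 0.00, 0.00 and 0.02, with 5779, 5922, 5927 and 5721 of 11909 lower in PUS10KO. The 7 genes of lower glycolysis had medians of -0.11, -0.45, -0.54 and -0.75, so that number 1 stood closest to no difference. The 4 pyruvate genes had 0.77, 0.63, 0.44 and 0.04. The 11 rows of upper glycolysis had 0.10, -0.22, -0.39 and 0.11. The 17 genes of oxygen sensing and the hypoxia response together had -0.33, -0.51, -0.38 and -0.39, but the 2 groups differed. The 12 hypoxia targets had -0.16, -0.54, -0.59 and -0.65, with number 1 again closest to no difference. The 5 genes of oxygen sensing had -0.50, -0.35, -0.32 and -0.23. The numbers are labels with no order, and that they pair the libraries was read from the counts.

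Within each genotype, some libraries were the lowest or highest for more of the 41 rows than others. Control 1 was the lowest control library for 23 of the 41 rows and for 10 of the 17 rows of upper and lower glycolysis other than the second row of Aldoa. PUS10KO 1 was the lowest PUS10KO library for 15 of the 41 rows. In the 7 genes of lower glycolysis control 1 was the lowest control for 6, and PUS10KO 4 the lowest PUS10KO library for 5. Control 4 was the highest control library for 21 of the 41 rows, and PUS10KO 4 the highest PUS10KO library for 19. How often each library was lowest or highest over all tested genes is not given here. That the medians differed between numbers was known when the genes were chosen, so the pattern is a description.

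**Figure D4:**
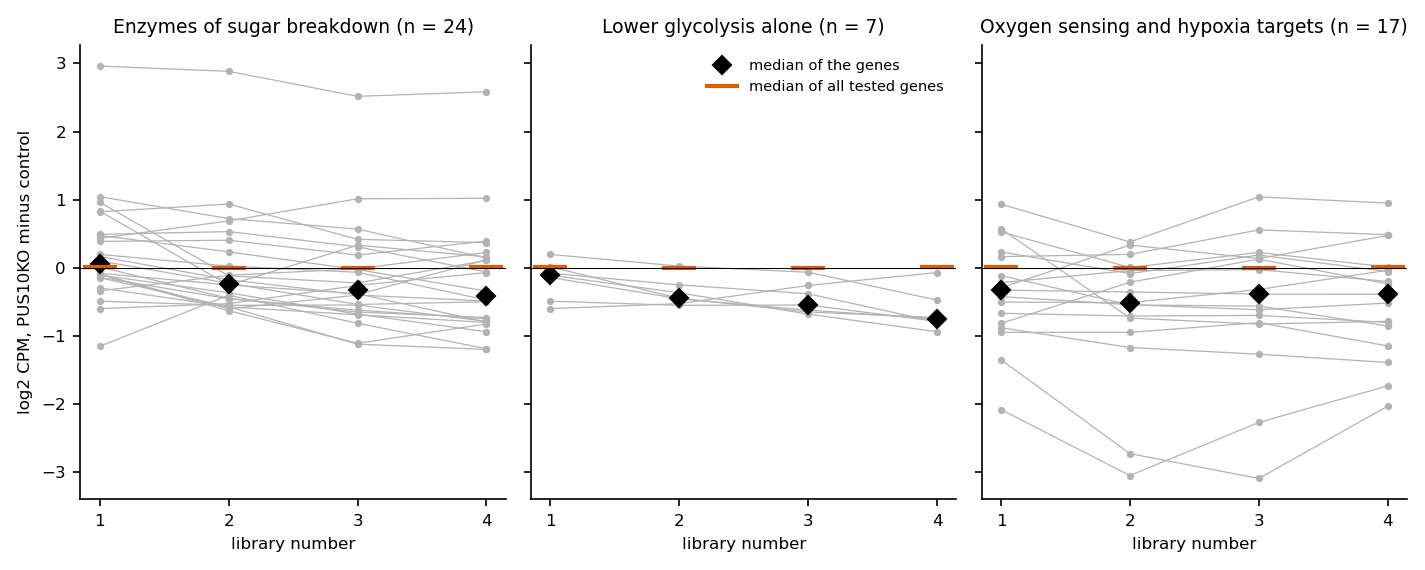
Difference in log2 CPM between the PUS10KO and the control library of the same number (vertical axis) for each gene (grey points, joined by gene) in numbers 1 to 4; black diamonds are medians of the genes and orange bars medians of all tested genes. The left panel holds the 24 rows of sugar breakdown, the middle panel the 7 genes of lower glycolysis, whose medians run from -0.11 in number 1 to -0.75 in number 4, and the right panel the 17 genes of oxygen sensing and the hypoxia response.

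Some rows were also split by number across both genotypes, in no larger a share than among all tested genes. Taking both genotypes together, Hk2, Egln1 and Adm were higher in all 4 libraries of numbers 1 and 2 than in all 4 of numbers 3 and 4, as were 12.9% of all tested genes. Eno2, Pdk1, Bnip3l, Ndrg1 and Mxi1 were lower in numbers 1 and 2, as were 12.3% of all tested genes. Hk2 had 135, 115, 36.6 and 61.3 CPM in PUS10KO libraries 1 to 4, and 120.4, 129, 48.1 and 56.4 CPM in control libraries 1 to 4. The hormone gene Adm, which encodes adrenomedullin, had 91.7, 58.4, 50.7 and 26.4 CPM in PUS10KO libraries 1 to 4, and 77.9, 61.8, 44.5 and 27.3 CPM in control libraries 1 to 4. What the libraries of a number shared is not given in the labels.

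The position of a gene in the genome moved with some of these differences. Of the chromosomes with at least 100 tested genes, the medians of chromosomes 10 and 12 (log2 fold change -0.25 and -0.60) lay more than 0.2 from 0. Hk1, Pfkl, P4ha1 and Ddit4 lie on chromosome 10, and Hif1a and Egln3 on chromosome 12. With each chromosome scaled on its own 1 row rose (Ldhb) and 5 fell (Aldoa, Egln3, P4ha1, Ero1l, Ankrd37), and 4.92% and 4.58% of all tested genes did so. With that scaling and the block 4 rose and 17 fell, against 15.2% and 14.8% of all tested genes. Pfkl, Pfkp, Gapdh and Kdm3a lost their calls under the scaling by chromosome and passed again when the block was added. Tpi1, Pgam1, Pkm, Pdk3, Pgm2, Vhl and P4ha2 were called with the block alone and not with the block and that scaling together.

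**Figure D5:**
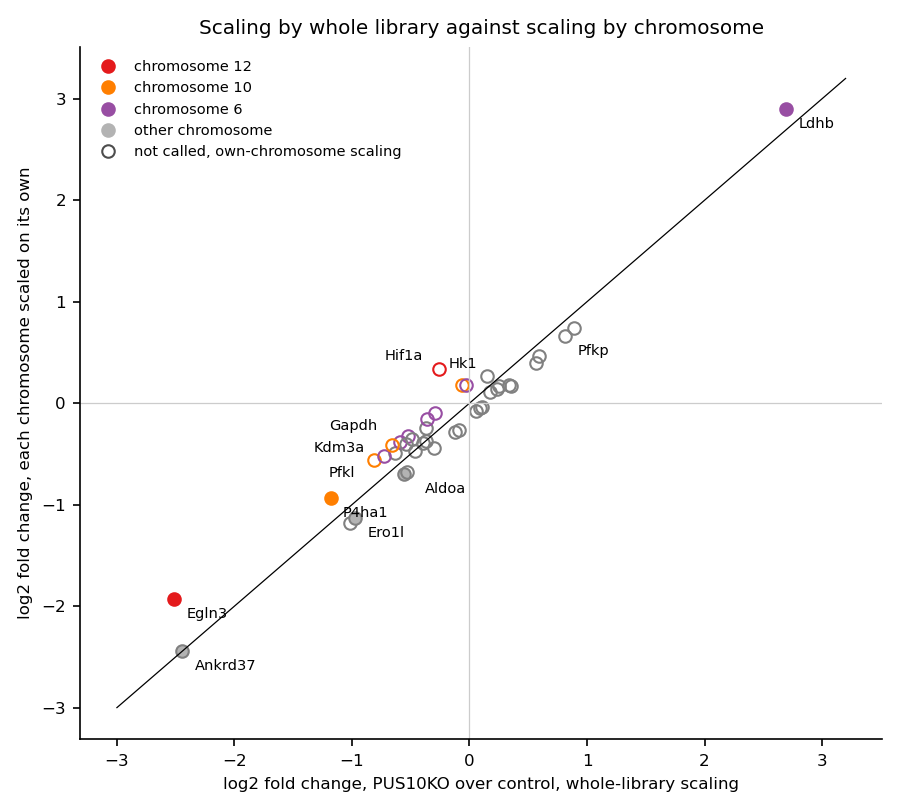
Log2 fold change of the 41 rows with each chromosome scaled on its own (vertical axis) against that with the whole library scaled together (horizontal axis), PUS10KO over control; colours mark chromosomes 12, 10 and 6, filled points passed the test under scaling by chromosome, and the line marks equal values. Hif1a crosses from -0.26 to 0.34, while Ldhb, P4ha1, Ero1l, Ankrd37 and Egln3 stay on their side of 0 and filled.

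Related genes outside the group were counted from 8 lists of the same pathways. Of 133 tested genes 5 rose, 12 fell and the other 116 did not pass the test, and with the block 22 were higher and 31 lower. Among all tested genes 5.9% rose and 7.11% fell, and with the block 19.1% rose and 19.9% fell. These are also the shares to set beside the counts of each single list that follows. The median log2 fold change of the 133 genes was 0.01. Slc16a3, the lactate exporter MCT4 and a known HIF target, fell. It had 0.386, 1.07, 0.760 and 0.704 CPM in PUS10KO libraries 1 to 4, and 26.2, 23.2, 37.5 and 45.1 CPM in control libraries 1 to 4 (log2 fold change -5.46, SE 0.35, adjusted p = 5.26e-05, edgeR). Its chaperone gene Bsg had a fold change of -0.58 on the log2 scale (adjusted p = 0.0162, edgeR), which did not pass relative to the rest of chromosome 10 (adjusted p = 0.17) or without PUS10KO 3 (adjusted p = 0.0531). The other 8 transport genes did not pass (1 rose with the block), among them Slc16a1, the lactate carrier MCT1 (log2 fold change 0.15, adjusted p = 0.6, edgeR), and Slc2a1, the glucose carrier GLUT1 (-0.17, adjusted p = 0.714). Both of these were named after their values were seen.

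Among 8 other glycolytic genes Eno3, the muscle enolase gene, fell (38.4 ± 2.92 CPM in PUS10KO and 118 ± 25.3 CPM in control; log2 fold change -1.62, adjusted p = 0.000568, edgeR), and 4 of them fell with the block. Among 17 genes of glycogen and glucose synthesis 1 rose and 3 fell (3 and 6 with the block). Pcx, which carboxylates pyruvate to oxaloacetate, rose (27.4 ± 7.28 CPM in PUS10KO and 8.73 ± 2.23 CPM in control; log2 fold change 1.65, adjusted p = 0.00451, edgeR). Pygl, the liver glycogen phosphorylase gene on chromosome 12, had 0 counts in PUS10KO and 146 in control, at least 52.6-fold lower if PUS10KO is set to a floor of 3 counts in all. The glycogen-targeting phosphatase subunit gene Ppp1r3b fell too (log2 fold change -2.48, adjusted p = 0.0253, edgeR), a call lost in 5 of the 8 fits without 1 library, namely without PUS10KO 1, 2 or 3 or control 3 or 4 (adjusted p up to 0.0638). None of 12 genes of pyruvate entry into mitochondria and none of 12 of the pentose phosphate pathway passed edgeR's test, where 3 of each list had an unadjusted p under 0.05. DESeq2 called 1 rise and 1 fall in the first list and 3 rises in the second, limma voom called 0 in both, and with the block 3 rose and 1 fell in the first and 4 rose in the second. The highest of them by level, Pdha1 and Dlat, Tkt and Taldo1, had log2 fold changes of -0.06, -0.15, -0.06 and 0.42.

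Among 16 other genes of oxygen sensing 1 rose and 1 fell (3 and 3 with the block). These counts are near the shares of all tested genes, 5.9% and 7.11% (19.1% and 19.9% with the block). Epas1, which encodes HIF-2α, fell: it had 0.936, 0.597, 0.844 and 0.487 CPM in PUS10KO libraries 1 to 4, and 15.7, 6.35, 4.02 and 2.78 CPM in control libraries 1 to 4 (log2 fold change -3.32, SE 0.58, adjusted p = 0.00606, edgeR). All PUS10KO libraries lay below all controls, which spread widely. Usp20, a deubiquitinase gene, rose (log2 fold change 0.73, adjusted p = 0.0249, edgeR), a call lost without PUS10KO 3 or 4 or control 1 or 2 (adjusted p up to 0.0793).

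Of 40 other hypoxia targets 2 rose, 3 fell and 35 did not pass, which is near the 5.9% and 7.11% of all tested genes. With the block 4 of the 40 were higher in PUS10KO and 12 lower, where 19.1% and 19.9% of all tested genes were. The lysyl oxidase-like gene Loxl2, which crosslinks collagen, fell to 16.6 ± 2.32 CPM in PUS10KO, against 160.3 ± 59.1 CPM in control (log2 fold change -3.28, adjusted p = 0.000171, edgeR). The collagen lysyl hydroxylase gene Plod2 (log2 fold change -1.19, adjusted p = 0.00476; named after its values were seen) and the transcriptional repressor gene Bhlhe41 (-2.79, adjusted p = 0.00092) fell as well. Stc1, a secreted glycoprotein hormone gene, rose (1.94, adjusted p = 0.00391), as did Cdkn1a, a cell cycle inhibitor gene (1.19, adjusted p = 0.00464). Vegfa, the vascular growth factor gene, named after its values were seen, had a fold change of -0.05 on the log2 scale (adjusted p = 0.962, edgeR). Among 18 regulators of glycolysis Arrdc4, which restrains glucose uptake, rose (1.24, adjusted p = 0.00154, edgeR). Akt1 (-0.88, adjusted p = 0.00459) and Max (-0.57, adjusted p = 0.0477), a kinase and the partner of MYC, fell, and with the block 4 regulators rose and 3 fell. Akt1 and Max lie on chromosome 12, and neither passed relative to the rest of that chromosome (-0.30, adjusted p = 0.224, and 0.02, adjusted p = 0.959, edgeR). Max also lost its call in 7 of the 8 fits without 1 library (adjusted p up to 0.129).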

How the data were processed

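RNA of 8 libraries was sequenced in paired-end mode from stranded total RNA preparations, per the labels' protocols. The values used are raw read counts per gene as the authors deposited them, and no column was left unmapped. STAR 2.7.8a, DESeq2 and mm10 appear in the submitters' processing notes; the counter, strand setting and annotation used were not given in the sources used here. A deposited normalized table was not used. Of the genes counted in the other lists, 1 that fell is not reported here by name. The members and lists were chosen with earlier results of these data known.

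The test was run with edgeR 4.0.16 (R 4.3.3): filterByExpr kept 11909 of 12211 rows, libraries were scaled by TMM, and the robust quasi-likelihood test compared genotypes with Benjamini-Hochberg adjustment, a gene being called at an adjusted p under 0.05. All 8 libraries were fitted with genotype as the only term. SE is the log2 fold change over the square root of F, and intervals use the fit's degrees of freedom. Differences within numbers use log2 CPM with a prior count of 2. Positions and exon lengths are those of GENCODE M21 on GRCm38, the mm10 assembly; 12046 rows matched by symbol and 119 by synonym. Promoter windows came from RefSeq (GRCm38.p6). The fit was also run on simulated counts. These held no difference between library numbers, so they do not show how the fit handles that spread.

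Deviations from the genotype means correlated between same-numbered libraries (r = 0.681, 0.722, 0.633 and 0.687 over genes, which are no independent replicates; highest with another number 0.303, 0.042, 0.582 and 0.503). The numbers were therefore taken to pair the libraries, and blocked values stand beside the calls they change; this pairing comes from the counts, not the labels. Every pair of libraries within a genotype differed by more than sampling noise (chi-square per degree of freedom at least 17.9).

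Alternatives were the replicate block, DESeq2 1.42.0, limma 3.58.1 voom, RLE size factors, no filter, each chromosome scaled on its own, and leaving out each library. Named genes were all members, called ones and those called with the block without overlap by library; of each other list up to 4 called genes by lowest p, or the 2 highest where none was called. The depth limits low genes: Egln3 had 6 to 16 counts per PUS10KO library. Floors cover counting error only.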

Additional observations from a re-analysis of the deposited data

Results flagged for a closer look

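In each of 82 groups of 4 libraries (41 rows in 2 genotypes) the most extreme library was compared with the range of its group, and 3 stood further from the others than Dixon's 95% limit for 4 values. Chance alone flags about 1 group in 20. Pkm had 2025 CPM in PUS10KO 2, above 1574 to 1636 CPM in the other PUS10KO libraries (gap over range 0.863). P4ha1 had 647 CPM in control 4, above 454 to 471 CPM in the other controls (gap over range 0.914), and without control 4 P4ha1 remained called. Vhl had 58.2 CPM in control 4, above 48.6 to 49.96 CPM in the other controls (gap over range 0.860).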

How the results depend on the processing

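Among the glycolysis and hypoxia genes the count that rose (2) and fell (8) was 7 and 19 with the replicate block, 1 and 5 with each chromosome scaled on its own, and 4 and 17 with both; leaving out 1 library gave 1 to 3 that rose and 5 to 11 that fell, beside 4.11% to 5.33% and 4.35% to 6.06% of all tested genes. DESeq2 called 3 and 11, limma voom 2 and 9, and RLE size factors and no filter 2 and 8, each including the same 10 genes. Of the genes of the other lists (5 rose, 12 fell) the block gave 22 and 31, DESeq2 11 that rose, and scaling by chromosome with the block 20 and 27. Among all tested genes the block gave 19.1% and 19.9%, DESeq2 9.39% that rose, and scaling by chromosome with the block 15.2% and 14.8%. Scaling by chromosome, without and with the block, turned the sign of 7 uncalled or weak values: Hk1 (0.18, 0.19), Hk2 (0.18, 0.14), the second Aldoa row (-0.078, -0.042), Ldha (-0.048, -0.056), Hif1a (0.34, 0.31), Adm (-0.0395, -0.068) and Max (0.024, 0.034). Leaving out 1 library gave log2 fold changes on both sides of 0 for Hk1 (-0.13 to 0.037), Hk2 (-0.32 to 0.23), the second Aldoa row (-0.25 to 0.26), Pgk1 (-0.17 to 0.015), Bnip3l (-0.31 to 0.12), Mxi1 (-0.10 to 0.34), Adm (-0.23 to 0.36), Pdha1 (-0.13 to 0.024) and Tkt (-0.26 to 0.075). The cause was not tested. Without division by length the share of Pfkm differed by 6.94 points (14.9 with it), Pfkp by 18.1 (9.41) and Ldhb by 5.38 (10.4). With ACGTG alone a promoter match stood in 55.3% of the genes, 62.5% of those that fell, 0% of the 2 that rose and 25.3% of tested genes. Among the 41 rows RLE size factors and no filter changed no call, and every other setting changed some. Scaling by chromosome lost Pfkl, Pfkp, Gapdh and Kdm3a. DESeq2 added Pfkfb4, Pkm, Pgm2 and Vhl, and limma voom added Pfkfb4. Depth limits Aldoc, the second Aldoa row, Egln3 and Ankrd37, the 4 rows with the fewest counts.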

Other observations

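Per kilobase of exon, the most abundant of these transcripts in PUS10KO were Pkm (342 ± 42.2 CPM per kilobase), Ldha (302 ± 46.3), Aldoa (277 ± 18.2) and Tpi1 (174 ± 18.1), and in control Pkm (498 ± 108), Aldoa (408 ± 53.6), Ldha (283 ± 33.8) and Tpi1 (251 ± 67.1; SD, n = 4 each). Pkm, Ldha and Aldoa were within about 1 SD of a neighbour in PUS10KO, and the place of Ldha above Aldoa there was not beyond their spread. P4ha1 came next in control (124 ± 22.5) and below Pgk1, Eno1, Gapdh and Hif1a in PUS10KO (54.5 ± 7.14). The lowest apart from the second Aldoa row were Aldoc (0.175 ± 0.0419 in PUS10KO and 0.356 ± 0.126 in control) and Egln3 (0.208 ± 0.0953 in PUS10KO and 1.18 ± 0.501 in control). Lengths are those of all annotated exons of a gene together, which understates the level of genes with long rare exons.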
